A study of Saccharomyces cerevisiae with 9 samples.

Results

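The interior of internal transcribed spacer 1 (ITS 1) of the yeast ribosomal RNA gene was examined position by position. It was defined as positions 2531 to 2861 of the 35S repeat, which leaves out the 30 positions of ITS 1 next to 18S, and it holds 331 of the 6858 positions of the repeat. In the R64 assembly they lie on the minus strand of chromosome XII between 464709 and 465039, inside the feature annotated as ITS1-2. They were divided at the cleavage sites A2 (position 2712) and A3 (position 2784) into 182 positions up to A2, 72 positions from A2 to A3 and 77 positions from A3 to 5.8S. The place of A2 is approximate, and A3 was set 72 nt after it.

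Occupancy of RNA polymerase I (Pol I) was measured with NET-seq (native elongating transcript sequencing), in which the RNA bound to immunoprecipitated Pol I is sequenced from its 3′ end. Each of 3 log subphases, early, mid and late, was sampled with 3 biological replicate cultures and libraries. All 9 libraries share 1 haploid strain, grown in YPD at 30 °C. The strain is MATa with the markers ade2-1, ura3-1 and trp1-1, the double allele of leu2-3 and leu2-112, the markers his3-11 and can1-100, and a Pol I subunit tagged as RPA135-(HA)3-(His)7::TRP1. By design the groups differ in the culture density at harvest, and the cultures were not synchronized for the cell cycle. Values are RPM, reads per 1000000 of a library's reads on this repeat, so they are shares of the repeat and not amounts per cell.

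ITS 1 separates 18S from 5.8S in the precursor rRNA and is removed during ribosome assembly. Cleavage at A2 splits the precursor into the 20S pre-rRNA of the small subunit and the 27SA2 pre-rRNA of the large subunit, and in fast-growing yeast it often takes place while Pol I is still transcribing. The endonuclease RNase MRP cuts 27SA2 at A3. In this assay a 3′ end at a cleavage site can belong to a nascent RNA or to a cut precursor, such as 20S pre-rRNA at A2. A cut precursor may have been bound to the immunoprecipitated material or carried over with it. The reads do not tell these apart.

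The sequences around both sites are shown because most of the positions called higher in late log phase in the main test of single positions lie there. Capitals mark the window of 5 nt to each side of the site, and the sequences are the RNA read from the deposited tables. The A2 stretch is chrXII:464838-464887 and the A3 stretch is chrXII:464766-464815, both on the minus strand.
A2 site: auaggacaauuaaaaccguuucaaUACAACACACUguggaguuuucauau
A3 site: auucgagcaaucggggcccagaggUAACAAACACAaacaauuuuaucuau

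The next 3 stretches hold strong 3′ ends of early log phase before A2, those of the first 2 stretches with the largest changes and the last with the highest level in the ITS 1 interior outside the A2 window, and the positions named are in capitals. They are chrXII:464978-465020, chrXII:464933-464972 and chrXII:464891-464930, all on the minus strand.
positions 2569 and 2572: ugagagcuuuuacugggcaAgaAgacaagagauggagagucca
position 2617: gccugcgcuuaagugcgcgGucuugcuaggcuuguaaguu
position 2659: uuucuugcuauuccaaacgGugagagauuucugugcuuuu

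The depth over the repeat ranged between 350940 and 7307421 reads per library, and the ITS 1 interior held between 3684 reads (early log replicate 3) and 47479 reads (mid log replicate 1). A count of 0 allows up to 3 reads, which is between 0.411 and 8.55 RPM depending on the library. In 2 cases a library stood apart. Mid log replicate 1 had a mean level of 23.6 RPM, inside the early log range of 16.6 to 31.7 RPM. Across the ITS 1 positions its Spearman correlations were 0.658, 0.906 and 0.762 with early log replicates 1 to 3. With mid log replicates 2 and 3 they were 0.872 and 0.836, so its profile was not closer to early log throughout. Early log replicate 1 had few 3′ ends at A2. The sequencing runs were not balanced: early log replicates 2 and 3 had a run of their own, as had the mid log libraries, while the late log libraries shared theirs with early log replicate 1. Mid log phase and its run cannot be told apart.

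The ITS 1 interior held a smaller share of the repeat's reads later in log phase. The share was 0.549%, 0.849% and 1.05% in early log replicates 1 to 3. It was 0.783%, 0.321% and 0.283% in mid log, and 0.370%, 0.448% and 0.348% in late log. The late log libraries all lay below the early log ones, while mid log replicate 1 lay inside the early log range. The mean share was 0.389% ± 0.0526 in late log and 0.816% ± 0.252 in early log (SD, n = 3 each), a difference of -1.03 on the log2 scale. The exact two-sided permutation test gave p = 0.10, the smallest that 3 against 3 libraries allow. Over the 3 subphases together the exact permutation test of the F statistic gave p = 0.129 (with all libraries it cannot go below 0.00357). Leaving out 1 library at a time gave an exact permutation p between 0.0214, without mid log replicate 1, and 0.311.

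That share depends on what it is divided by. Among reads in the 4 spacers away from mature rRNA ends, the ITS 1 interior took 15.8%, 12.9% and 18.8% in early log, 16.5%, 27.1% and 28.6% in mid log, and 28.9%, 28.5% and 33.7% in late log. Here the late log libraries all lay above the early log ones, by 0.96 on the log2 scale (exact permutation p = 0.10, and p = 0.0429 over the 3 subphases). The mean RPM of the ITS 1 interior over that of external transcribed spacer 1 (ETS 1), the first part of the repeat to be transcribed, was 0.442, 0.334 and 0.547 in early log, 0.475, 0.932 and 1.02 in mid log, and 1.07, 1.02 and 1.38 in late log. The late log ratios were all above the early log ones (exact permutation p = 0.0393 over the 3 subphases, chosen after the values were seen). The direction of the difference for the ITS 1 interior thus differed between the whole repeat and these spacer denominators. ETS 1, which is part of both spacer denominators, averaged 57.5 RPM per position in early and 10.5 RPM in late log. What sets the direction was not tested. The paper describes mature rRNA contamination among the reads of the gene regions, and for that reason evaluates Pol I in the spacers. RPM and the position tests below count those reads in their denominator. Per position, 18S away from its ends averaged 176.4 RPM in early and 150.3 RPM in late log. The ITS 1 interior averaged 24.7 and 11.7 RPM.

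All 3 segments had lower mean levels in late than in early log phase. Up to A2 the mean per position was 15.1 ± 1.82 RPM in late log and 27.6 ± 8.004 RPM in early log (SD, n = 3 each). Between A2 and A3 it was 9.44 ± 1.29 RPM in late log and 27.1 ± 6.49 RPM in early log. From A3 to 5.8S it was 6.07 ± 1.40 RPM in late log and 15.5 ± 7.80 RPM in early log. The libraries of these subphases overlapped only in the last segment, where early log replicate 1 had 7.05 RPM and late log replicate 2 had 7.64 RPM. The exact permutation p over the 3 subphases was 0.146, 0.0821 and 0.30 for the shares of the 3 segments in that order. Leaving out 1 library at a time, it was lowest without mid log replicate 1, at 0.0392857, 0.00714286 and 0.0642857. The highest values were 0.35, 0.143 and 0.596.

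**Figure D1:**
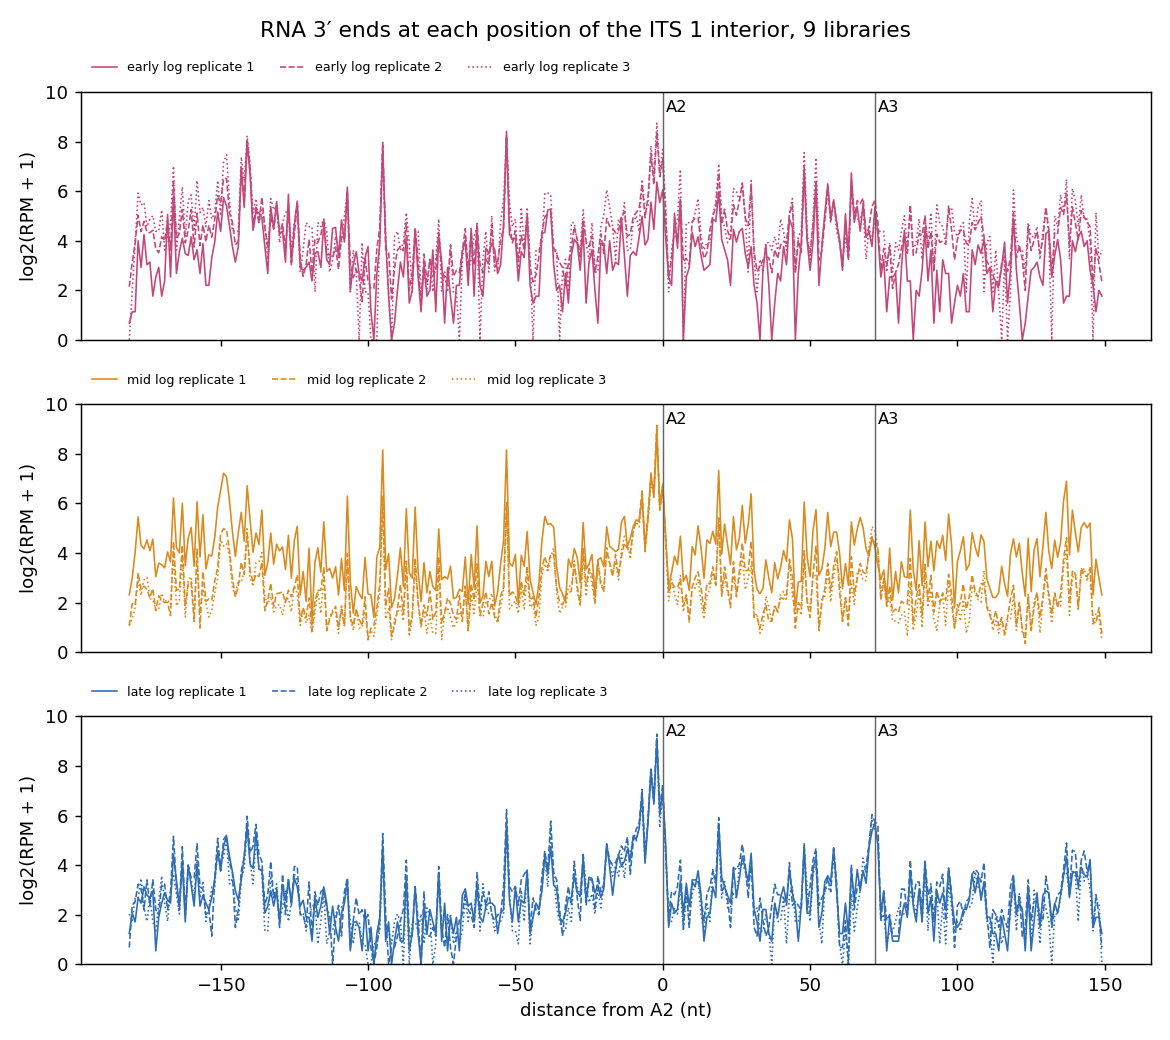
RNA 3′ ends, as log2(RPM + 1), at each of the 331 positions of the ITS 1 interior, by distance from A2 in nt, with 1 line per library and 1 panel per subphase. In late log phase the profile is lower than in early log over most of the spacer, but the peak just before A2 reaches 540 to 624 RPM.

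The mean level of 3′ ends at A2 did not follow the rest of the spacer. The window of 11 positions around A2 had a mean of 31.6, 89.0 and 110.4 RPM in early log, 84.6, 94.0 and 87.1 RPM in mid log, and 102.2, 117.8 and 105.2 RPM in late log. Without early log replicate 1 the other libraries lay between 84.6 and 117.8 RPM, and early and late log overlapped with it or without it. The difference of late over early log was 0.68 on the log2 scale (exact permutation p = 0.30). Positions away from both sites behaved otherwise. Over the 289 positions outside the 15 nt before and 5 nt after each site, the mean was 15.5, 22.8 and 29.3 RPM in early log, 21.3, 5.89 and 4.85 RPM in mid log, and 6.83, 8.59 and 6.10 RPM in late log. Late log was lower than early log there, with a log2 difference of -1.62 and no overlap (exact permutation p = 0.10).

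The A2 window took a larger part of the ITS 1 reads later in log phase. It held 6.34%, 11.5% and 11.6% of them in early log, 11.9%, 32.3% and 33.8% in mid log, and 30.4%, 28.9% and 33.3% in late log. The 95% Wilson intervals, which cover counting error only, were 5.86% to 6.86% in the lowest library and 33.2% to 34.5% in the highest. Both later subphases lay wholly above early log, although the value of mid log replicate 1 lies inside the interval of early log replicate 3 (10.6% to 12.6%). The mean was 30.9% ± 2.20 in late log and 9.81% ± 3.00 in early log (SD, n = 3 each), and 26.0% ± 12.2 in mid log. The exact permutation p over the 3 subphases was 0.0679, or 0.167 after Benjamini-Hochberg adjustment over the 8 measures compared this way. Leaving out 1 library at a time, the p before adjustment lay between 0.0107, without mid log replicate 1, and 0.129.

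The level of 3′ ends was far lower after A2 than before it in mid and late log. The 15 positions up to A2 averaged 27.3, 80.7 and 93.5 RPM in early log, 79.5, 84.6 and 79.8 RPM in mid log, and 93.3, 108.1 and 94.7 RPM in late log. The 15 positions after it averaged 13.5, 18.2 and 28.5 RPM in early log, 14.5, 6.10 and 5.25 RPM in mid log, and 7.01, 7.75 and 5.54 RPM in late log. The ratio of the first to the second was 2.03, 4.45 and 3.28 in early log, 5.47, 13.9 and 15.2 in mid log, and 13.3, 13.9 and 17.1 in late log. Every mid and late log library thus had a larger step than every early log library (exact permutation p = 0.0179 over the 3 subphases, for a measure chosen after the values were seen).

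**Figure D2:**
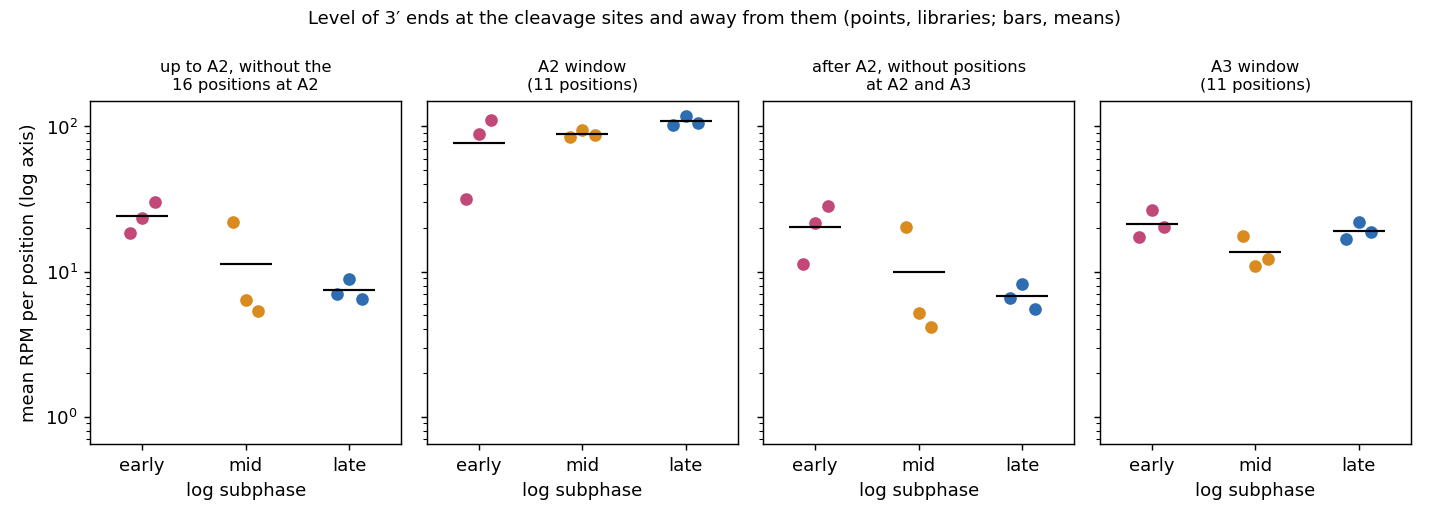
Mean RPM per position (log axis) in 4 sets of ITS 1 positions, by subphase, with points for libraries and bars for means. Away from the sites the late log points lie below all early log points, while in the A2 window they lie between 102.2 and 117.8 RPM, within or above the early log range.

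The comparison of the sides of A2 turned on these few positions. The mean level downstream of A2 over that upstream was 0.694, 0.796 and 0.780 in early log, 0.743, 0.454 and 0.428 in mid log, and 0.524, 0.533 and 0.472 in late log. Late log was lower than early log, with a log2 difference of -0.57 and no overlap (exact permutation p = 0.10, and p = 0.129 over the 3 subphases). With the positions at both sites left out, the ratio was 0.607, 0.922 and 0.943 in early log, 0.926, 0.812 and 0.767 in mid log, and 0.928, 0.916 and 0.854 in late log. The difference then had the other sign, at 0.15 on the log2 scale with overlapping libraries (exact permutation p = 0.90). Moving the dividing line 10 nt upstream, which places the peak on the downstream side, gave 0.96. Away from the sites, the log2 difference of late over early log was -1.67 before A2 and -1.52 after it.

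Position by position, limma was fitted on log2(RPM + 1) over the whole repeat, and a change was called at a Benjamini-Hochberg adjusted p under 0.05. On that scale the change of a low position is understated. Between late and early log, 329 ITS 1 positions had a mean of at least 1 RPM and were tested. Of these, 144 fell and 4 rose, beside 48.2% of all tested positions of the repeat called (35.7% lower and 12.5% higher). The share of ITS 1 positions called is therefore near that of the repeat, and the split is more one-sided than over the repeat. Other spacers were one-sided too. ITS 2 (internal transcribed spacer 2) had 99 falls and 1 rise among 231 tested positions (43.3% called, median log2 change -1.14). ETS 1 had 479 falls and 0 rises among 685 (69.9% called, median -1.98). The median log2 change was -1.26 over the ITS 1 positions and -0.44 over the repeat, and with the median change of the repeat set to 0, 96 ITS 1 positions fell and 11 rose, beside 41.3% of the repeat called. The libraries did not overlap at 177 lower and 6 higher positions, where the repeat had 42.5% and 15.7%. Without early log replicate 1, 220 positions fell and 4 rose, beside 60.1% of the repeat called. Without late log replicate 3, 80 calls were left, all of them falls, beside 30.97% of the repeat.

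The falls covered all segments. They numbered 73 of 180 tested positions up to A2, 46 of 72 from A2 to A3, and 25 of 77 from A3 to 5.8S. Over the repeat 35.7% of tested positions fell. In either direction 42.2%, 65.3% and 32.5% of the segments were called, beside 48.2% of the repeat. Only from A2 to A3 was this called share above that of the repeat. The median log2 changes were -1.22, -1.42 and -1.13. In steps of 20 nt, the late log mean was between 0.18 and 0.62 of the early log mean in every step except the one at positions 2691 to 2710, where it was 1.49. The lowest ratio, 0.18, was at positions 2611 to 2630.

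Of the 3 largest falls, 2 were at single strong positions of early log phase. The other, at position 2772, is described in the next paragraph. It had 14.3 to 15.7 RPM in early log, below the early log mean of the ITS 1 interior, 24.7 RPM. An A at position 2569, 143 nt before A2, had 9.52, 12.6 and 10.01 RPM in late log and 124, 122 and 165 RPM in early log. It fell by 3.55 on the log2 scale (SE 0.26, limma adjusted p = 2.68e-05). The G at position 2617 had 26.3, 37.7 and 22.3 RPM in late log and 220, 251 and 185 RPM in early log, and fell by 2.90 (SE 0.24, limma adjusted p = 4.06e-05). Both were separated from early log in every library.

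Position 2617 differed between the later subphases too. It had 286, 77.3 and 61.3 RPM in mid log, and late log fell by 1.94 relative to mid log (SE 0.50, limma adjusted p = 0.0124, which rose to 0.0605 without late log replicate 3). Without mid log replicate 1, late log fell by 1.26. The C at position 2772, between A2 and A3, was called in the same pairs. It had 1.36, 0.599 and 0.770 RPM in late log, which are 3, 1 and 1 reads, against 15.003, 4.52 and 6.82 RPM in mid log and 15.7, 14.6 and 14.3 RPM in early log. It fell by 3.07 relative to early log (SE 0.48, limma adjusted p = 0.000891) and by 2.23 relative to mid log (SE 0.61, limma adjusted p = 0.0177, lost without late log replicate 2 or 3). Its late log counts are at or under the 3 reads that a count of 0 allows.

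The highest position of the ITS 1 interior outside the A2 window was the G at position 2659. It had 341, 296 and 291 RPM in early log, 285, 64.5 and 56.8 RPM in mid log, and 52.1, 74.3 and 40.0 RPM in late log. Late log fell by 2.498 relative to early log (SE 0.23, limma adjusted p = 6.34e-05), with no call in late over mid log. In early log replicate 1 this position was far above the A2 peak, and in all late log libraries it was far below it.

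The 4 positions that rose in late over early log in the limma fit lie within 12 nt before A2 or beside A3. Falls were called in the site windows too. Of 11 positions tested in each, 2 fell and 1 rose in the A2 window, and 3 fell and 1 rose in the A3 window. In all, 27.3% and 36.4% of these positions were called, beside 48.2% of the repeat. The A at position 2710, 2 nt before A2, was the highest position of the ITS 1 interior. It had 82.1, 337 and 430 RPM in early log, 436, 567 and 541 RPM in mid log, and 540, 624 and 565 RPM in late log. It rose by 1.33 in late over early log (SE 0.49, limma adjusted p = 0.0470), and all late log libraries lay above all early log ones. This call was lost when early log replicate 2 or any 1 late log library was left out. Without early log replicate 1, the library with few 3′ ends at A2, the rise was 0.59. At position 2708 the A had 46.5, 183 and 228 RPM in early log, 150, 126 and 112 RPM in mid log, and 215, 245 and 230 RPM in late log. Late log rose by 0.84 relative to mid log there (SE 0.13, limma adjusted p = 0.00091), and early and late log overlapped.

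The others were at positions 2700, 2704 and 2783. The G at position 2700 had 23.6, 34.1 and 25.4 RPM in late log and 2.41, 17.2 and 11.4 RPM in early log, a rise of 1.63 (SE 0.57, limma adjusted p = 0.0371) that was lost without any 1 late log library and was 0.92 without early log replicate 1. The C at position 2704 had 43.5, 50.9 and 47.0 RPM in late log and 16.9, 38.7 and 19.95 RPM in early log, a rise of 0.97 (limma adjusted p = 0.035) that was lost without early log replicate 3 or any 1 late log library. The A at position 2783, the base before A3, had 40.3, 64.7 and 57.8 RPM in late log, against 21.9 to 32.6 RPM in mid log and 12.7, 41.0 and 14.3 RPM in early log. It rose by 1.40 relative to early log (SE 0.43, limma adjusted p = 0.022), although early log replicate 2 exceeded the lowest late log value, and the call was lost without early log replicate 3, late log replicate 2 or late log replicate 3.

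**Figure D3:**
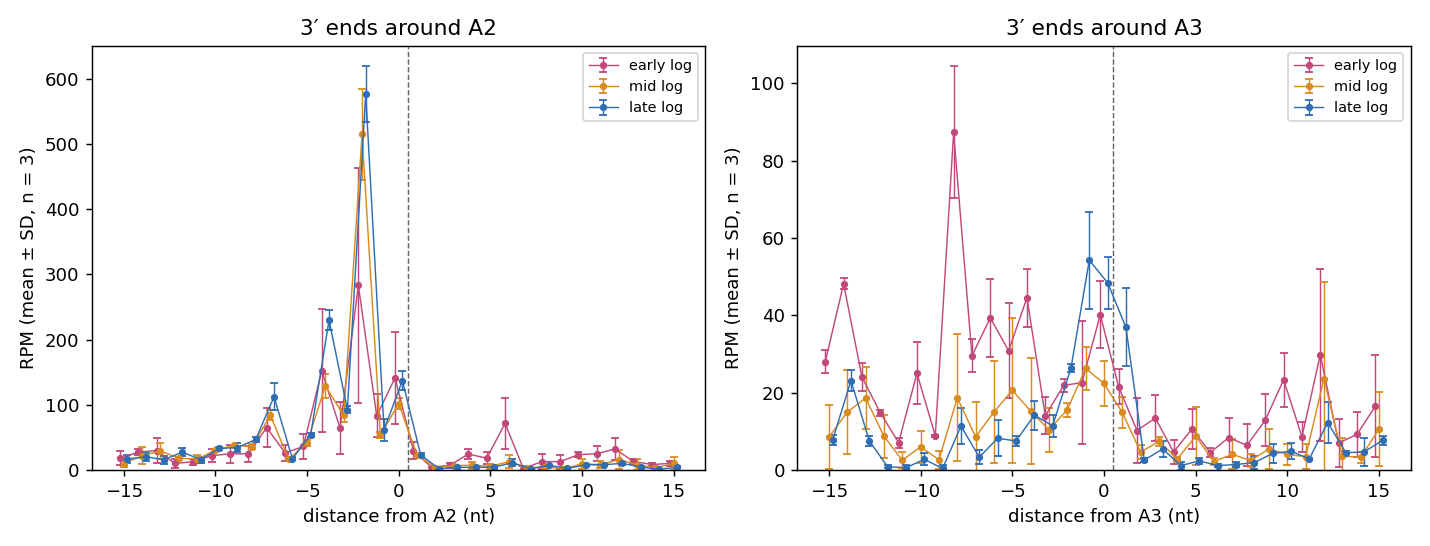
RPM within 15 nt of A2 and of A3 by subphase, as the mean with bars of 1 SD (n = 3), with a dashed line after the site. At A2 the peak stands at the same 2 nt before the site in all subphases. At A3 early log has its largest value 8 nt before the site and late log 1 nt before it.

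At A3 the level was lower than at A2 and the profile differed in shape. The window of 11 positions had a mean of 17.4, 26.4 and 20.2 RPM in early log, 17.5, 11.0 and 12.2 RPM in mid log, and 16.9, 22.0 and 18.7 RPM in late log, with early and late log overlapping (exact permutation p = 0.60). As a share of ITS 1 reads it was 3.49%, 3.42% and 2.12% in early log, 2.46%, 3.78% and 4.76% in mid log, and 5.01%, 5.40% and 5.91% in late log. All late log libraries lay above all others (exact permutation p = 0.0929 over the 3 subphases). Leaving out 1 library at a time, this p lay between 0.0107, without mid log replicate 1, and 0.171. The share depended on the window: the log2 difference of late over early log was 0.89 here, 0.0875 with 10 nt to each side (exact permutation p = 0.343 over the 3 subphases) and -0.02 with the 15 positions up to the site (exact permutation p = 0.468). The A at position 2784, the site itself, had 51.2, 53.3 and 40.8 RPM in late log and 17.6, 20.8 and 28.8 RPM in mid log, a rise of 1.10 (SE 0.24, limma adjusted p = 0.0066). Its early log values of 40.4, 48.8 and 31.4 RPM overlapped those of late log. The A at position 2785 behaved alike, with 27.2, 47.3 and 36.2 RPM in late log and 10.4, 17.2 and 17.1 RPM in mid log, a rise of 1.25 (SE 0.31, limma adjusted p = 0.0106, lost without late log replicate 2).

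Late log therefore differed from mid log at few positions, most of them at the sites. Of 329 positions tested, 7 rose and 4 fell in late over mid log, beside 38.8% of the repeat called (16.6% higher and 22.2% lower). The libraries did not overlap at 13 higher and 23 lower positions, where the repeat had 21.4% and 29.5%. The rises were at positions 2574, 2708, 2712, 2782, 2783, 2784 and 2785, and 6 of these 7 lie in the windows of A2 and A3. The exception is the A at position 2574, with 39.4, 49.1 and 32.3 RPM in late log and 27.0, 7.80 and 11.1 RPM in mid log, a rise of 1.499 (SE 0.41, limma adjusted p = 0.0177) that was lost without mid log replicate 2, late log replicate 1 or late log replicate 2. Besides positions 2617 and 2772, the C at position 2562 fell by 1.39 (SE 0.48, limma adjusted p = 0.0441), a call lost without mid log replicate 2 or any 1 late log library, and a fall by 0.77 without mid log replicate 1. Without mid log replicate 1, 45 of 321 positions tested rose and 4 fell, beside 44.6% of the repeat called.

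Mid log fell below early log at 20 of 330 positions tested and rose at none, beside 19.2% of the repeat called (12.7% lower and 6.48% higher). The libraries did not overlap at 80 lower and 5 higher positions, where the repeat had 26.4% and 14.3%. At an unadjusted p under 0.05 there were 78 positions, all lower, beside 36.7% of the repeat. Position 2569 fell by 3.07 (SE 0.64, limma adjusted p = 0.0195), with 49.0, 11.4 and 5.99 RPM in mid log and 124, 122 and 165 RPM in early log. The A at position 2572 fell by 3.001 (SE 0.57, limma adjusted p = 0.0159), with 38.9, 8.90 and 6.96 RPM in mid log and 98.9, 124 and 128 RPM in early log. The G at position 2604 fell by 2.80 (SE 0.64, limma adjusted p = 0.0239), with 4.62, 1.09 and 1.11 RPM in mid log and 14.5, 15.9 and 31.4 RPM in early log. In all 3, mid log replicate 1 was the highest mid log library, and each call was lost without early log replicate 2, early log replicate 3, mid log replicate 2 or mid log replicate 3. Without it positions 2569 and 2572 fell by 3.88 and 3.72, and 129 ITS 1 positions fell, beside 28.5% of the repeat called. Without mid log replicate 2 or mid log replicate 3 limma called none, beside 0.0444% and 0.148% of the repeat, while 29 and 30 positions had an unadjusted p under 0.05 (23.9% and 22.6% of the repeat).

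Further positions were strong enough to be named by level. Between A2 and A3 these were the A residues at positions 2731, 2760 and 2764. Position 2760 had 28.1, 25.8 and 22.3 RPM in late log and 110, 126 and 188 RPM in early log and fell by 2.40 (SE 0.25, limma adjusted p = 0.000126), and position 2764 fell by 2.31 (SE 0.33, limma adjusted p = 0.000609). Position 2731 fell less, by 0.95 (SE 0.30, limma adjusted p = 0.0243, lost without early log replicate 2 or 3 or late log replicate 1 or 3). After A3 the highest were the U residues at positions 2849 and 2851, close to 5.8S. Position 2849 had 2.41, 59.1 and 88.4 RPM in early log, 118, 23.5 and 16.3 RPM in mid log, and 19.04, 28.7 and 12.3 RPM in late log, with no call in any pair. There the early log libraries differed among themselves more than the subphases did.

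**Figure D4:**
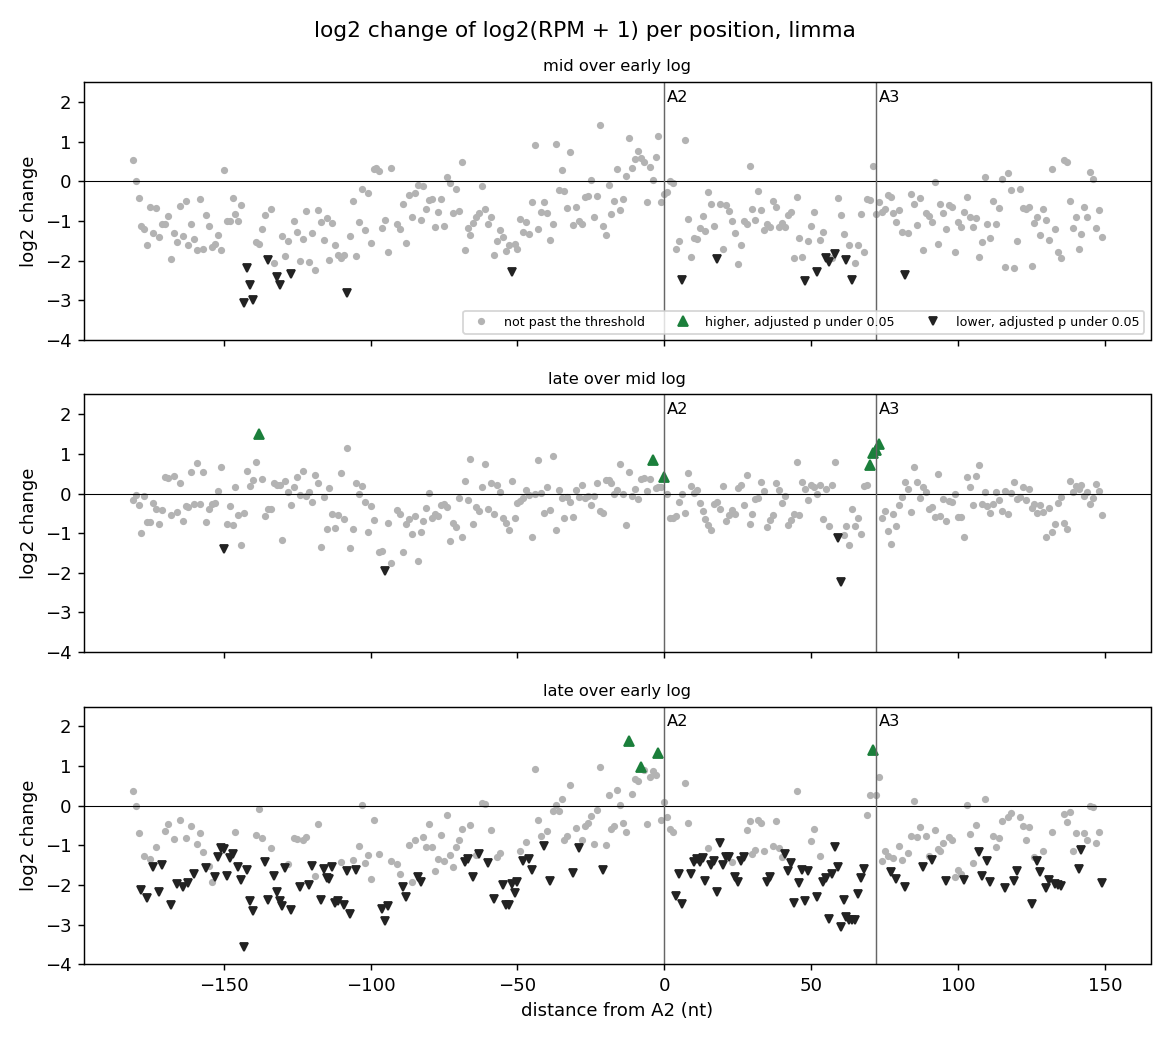
The log2 change of log2(RPM + 1) at each tested ITS 1 position by distance from A2, for mid over early, late over mid and late over early log, with triangles for limma adjusted p under 0.05 (up for higher, down for lower). The rises in late over early log are at 4 positions, 3 of them within 12 nt before A2 and 1 at A3, and the 144 falls spread over the spacer.

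More ITS 1 reads ended in A or C, and fewer in G, in late than in early log. The ITS 1 interior is 29.003% A, 17.2% C, 20.8% G and 32.9% U. Of its reads, 51.6% to 52.4% ended in A in late log, against 41.5% to 42.6% in early log, and 13.8% to 15.6% ended in G in late log, against 21.8% to 28.2% in early log. Away from the sites the A share was 37.5% to 39.5% in late log and 37.1% to 40.4% in early log, and the groups overlapped. The C share overlapped there too, at 9.82% to 11.4% in late log and 9.27% to 11.3% in early log. The G share there was 23.8% to 25.1% in late log, 24.9% to 25.4% in mid log and 25.3% to 31.1% in early log. Late and early log did not overlap. Early log replicates 2 and 3, at 25.3% and 26.1%, were however near the highest late log value, and only replicate 1 was far above it.

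Spearman correlations across the 331 positions, given as a description because neighbouring positions and depth are shared, ran between 0.649 and 0.847 for early log pairs of libraries, between 0.836 and 0.929 for mid log pairs and between 0.814 and 0.868 for late log pairs. Between late and early log libraries they were 0.533 to 0.829, between mid and early log 0.626 to 0.906, and between late and mid log 0.743 to 0.857. The top 10 positions of each library held between 22.2% and 27.1% of its ITS 1 reads for early log, 24.6% and 41.1% for mid log, and 35.4% and 39.3% for late log.

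ITS 2, the spacer between 5.8S and 25S, was the closest comparison. The mean RPM of the ITS 1 interior over that of the ITS 2 interior was 0.801, 0.859 and 0.928 in early log, 0.698, 1.19 and 1.10 in mid log, and 1.14, 1.2002 and 1.25 in late log. Late log was higher than early log by 0.47 on the log2 scale with no overlap (exact permutation p = 0.10, and p = 0.143 over the 3 subphases). With the A2 and A3 positions left out the difference was -0.11, which was not tested for this pair alone. Whether late log lay above or below early log in this ratio thus rested on the positions at the sites.

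**Figure D5:**
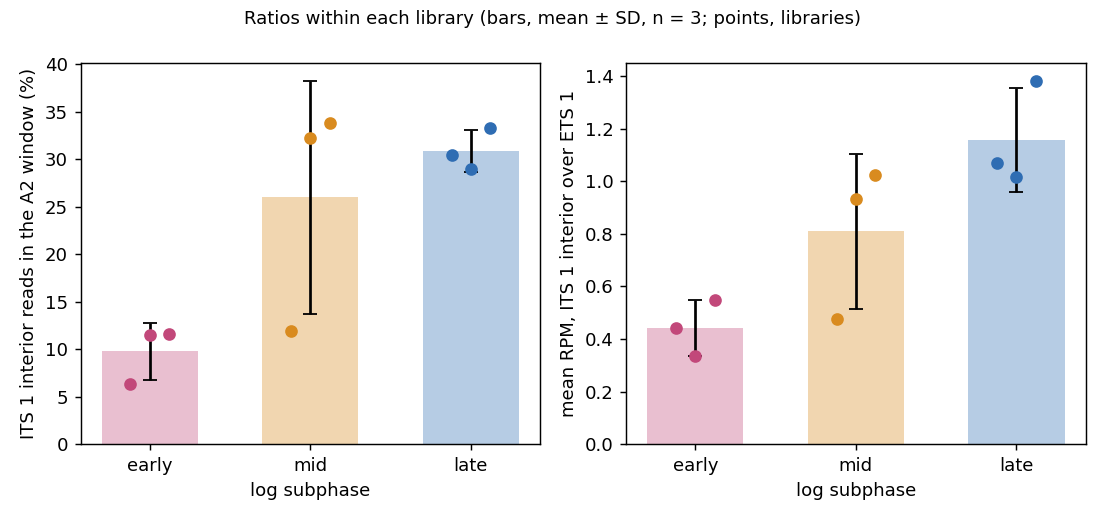
Percent of ITS 1 interior reads in the A2 window (left) and mean RPM of the ITS 1 interior over that of ETS 1 (right), by subphase, as bars of the mean with SD (n = 3) and points for libraries. Late log lies wholly above early log in both, and mid log replicate 1 lies near the early log libraries.

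Early log replicate 1 shared its sequencing run with the late log libraries, so late and early log could be compared within that run. The A2 window share was 28.9% to 33.3% in late log and 6.34% in that early log library, a difference of 2.281 on the log2 scale. The level away from the sites was 6.10 to 8.59 RPM in late log and 15.5 RPM in it, a difference of -1.12. Only 1 early log library enters these differences, the one with few 3′ ends at A2. The same library alone sets the contrast when the run is a term in the limma fit, so the 66 falls and 19 rises called in that fit (beside 41.4% of the repeat called) are not read further.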

How the data were processed

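The authors collapsed duplicate reads, trimmed the linker with cutadapt 3.4, aligned reads with STAR 2.7.3a to R64 and counted 5′ read ends per strand with bedtools 2.28.0, per their methods and processing notes. The deposited values are RPM, each library scaled by the authors to 1000000 reads over positions 1 to 6739 of the repeat (up to the terminator T1), a denominator found from the values. The deposited tables also hold the authors' own per-position comparison columns, which were not used. Columns have generic names, so each one's subphase follows from the pair of tables its sample description lists. The 9 libraries had equal values in both tables that hold them. The assembly holds 2 copies of the ITS 1 sequence, which reads cannot separate.

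RPM divided by the value of 1 read gave whole reads (within 0.01) at 99.9% to 100% of positions in each library and at all ITS 1 positions. Shares and ratios were compared on the log2 scale with exact two-sided permutation tests (20 assignments for a pair, 1680 for 3 subphases). The test of single positions was limma 3.58.1 (R 4.3.3) on log2(RPM + 1), where the 6 libraries averaged 1 RPM or more. On the recovered reads, edgeR 4.0.16 called 109 ITS 1 positions in late over early log, 9 in mid over early and 11 in late over mid, beside 43.9%, 14.1% and 32.6% of the repeat. In mid over early all 9 were lower. In late over early 99 were lower and 10 higher, and in late over mid 5 were lower and 6 higher. The places of the rises called by edgeR are not described here. The limma and edgeR fits were tested on simulated data. Named positions were the 3 highest of each segment, the highest in each site window, and the 3 largest called changes in each direction per pair. Others named were chosen after their values were seen. The ITS 1 positions, lists and tests were chosen with earlier results of these data known. Alternatives covered the pseudocount, filters, scaling, the block, the run and leaving out each library.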

Additional observations from a re-analysis of the deposited data

How the results depend on the processing

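Depth limits single positions most in early log replicate 3, and 3 replicates per subphase keep a pair at an exact permutation p of 0.10 or above. Direction depended on the denominator and on the A2 peak. As a share of spacer reads, the ITS 1 interior differed by 0.96 in late over early, 0.58 in mid over early and 0.37 in late over mid log (log2), where the shares of the repeat differed by -1.03, -0.93 and -0.10. The exact p over the 3 subphases was then 0.0429 for the interior, 0.0571 up to A2, 0.0929 from A2 to A3 and 0.0536 from A3 to 5.8S. In each of these segments late log was then higher than early log, by 1.15, 0.49 and 0.76 (log2).

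The ratio of downstream over upstream of A2 turned with the site moved 10 nt upstream (0.96, 0.66 and 0.30 for late over early, mid over early and late over mid, exact p = 0.0536 over the 3 subphases) and with the site positions left out, chosen after seeing the data (0.15, 0.0433 and 0.11, exact p = 0.764). The ratio to ITS 2 turned in late over early log with the site positions left out (-0.11). The exact p of 0.0464 there is over the 3 subphases together and does not test that pair. The A3 window share turned with a window of the 15 positions up to the site (-0.02, exact p = 0.468 over the 3 subphases). The A2 window share passed an exact p of 0.05 without the last 20 positions of ITS 1 (0.0464) and with the 15 positions up to the site (0.0357).

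Leaving out 1 library gave exact p over the 3 subphases between 0.0214 and 0.311 for the interior share, 0.0393 and 0.35 up to A2, 0.00714 and 0.143 from A2 to A3, 0.0643 and 0.596 from A3 to 5.8S, 0.00714 and 0.182 for downstream over upstream, 0.0107 and 0.129 for the A2 window, 0.0107 and 0.171 for the A3 window, and 0.0143 and 0.286 for the ratio to ITS 2, the lowest each time without mid log replicate 1. The log2 difference of the interior share ranged between -1.29 and -0.82 (late over early), -1.39 and -0.65 (mid over early), and -0.37 and 0.36 (late over mid, 0.36 without mid log replicate 1). That of downstream over upstream ranged between -0.63 and -0.52, -0.78 and -0.38, and -0.19 and 0.21 for these pairs, turning in late over mid without mid log replicate 1 (0.21) or late log replicate 3 (0.01).

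Counts of called positions ranged between 80 and 224 in late over early (148 with all libraries), 0 and 129 in mid over early (20), and 3 and 49 in late over mid (11), while the repeat had 30.97% to 60.1%, 0.0444% to 28.5% and 28.3% to 44.6% called. Without mid log replicate 3 the 11 calls in late over mid were 5 rises and 6 falls. In late over early, a minimum mean of 10 RPM gave 95 calls of 171 tested (49.9% of the repeat) and the run term 85 of 329 (41.4%). In mid over early, edgeR gave 9 calls with either scaling (14.1% and 14.7%), and leaving out early log replicate 1 with mid log replicate 1 gave 253 of 330 (49.3%), chosen after seeing the data. Deviations of same-numbered libraries correlated between -0.46 and 0.35. Libraries of different numbers were not compared this way, so these values do not settle whether replicate numbers pair the samples. The replicate block gave 155, 4 and 10 calls in late over early, mid over early and late over mid, so that the mid over early count fell by more than 1.5 times, and the repeat had 49.6%, 5.39% and 38.5%. Of the 406 values of named positions under other settings, 330 kept their side of the threshold, 76 lost the call and 0 changed direction. The causes of these changes were not tested.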
